A study of Mus musculus with 24 samples.

Results

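The 8 genes described here, Hmgcs1, Idi1, Fdft1, Sqle, Lss, Cyp51, Dhcr7 and Insig1, were chosen by name from the 18368 genes of a mouse skin expression table as a set of cholesterol genes. All 8 were in the table under these symbols and all 8 passed the filter on low values. Of these, 7 code for enzymes that make cholesterol, and Insig1 codes for a sterol-dependent regulator of that synthesis. None of the 8 codes for a receptor that takes cholesterol into the cell, so genes of uptake are given as a separate list.

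Cells build cholesterol from acetyl-CoA through mevalonate, isoprenoids, squalene and lanosterol. When sterols in the endoplasmic reticulum run low, the escort protein SCAP carries the SREBP transcription factors to the Golgi, where they are cut and released to switch on most genes of the pathway and of cholesterol uptake. When sterols are plentiful, INSIG proteins hold SCAP back. In skin, cholesterol is a main lipid of the epidermal barrier, and the sebaceous gland, an oil gland beside the hair follicle, makes large amounts of lipid, squalene among its precursors.

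RNA came from 24 libraries of whole skin from 12 CD1 mice, an outbred stock, aged 7 weeks and timed to the resting phase of the hair cycle. Each mouse was wounded with a 2 mm full-thickness punch at a single site, with 1 wound on the cheek or 2 on the abdomen or the back. After 3 days the wound and adjacent unwounded skin of the same mouse were each taken with a 2 mm punch, which gave 4 unwounded and 4 wound libraries each for abdomen, back and cheek. No library came from a mouse that had not been wounded, so the unwounded skin was that of wounded animals, and sites were compared between different mice. The sites stand for different embryonic origins of the dermis, and the study asked whether skin differs with them at rest and in repair.

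Levels are FPKM (fragments scaled by transcript length and by all mapped fragments of the library), which allow for length and can be compared between genes. FPKM carry no fragment counts, so the depth behind a value is unknown. The summed FPKM lay between 490830 and 608888 per library, and between 15781 and 16577 genes were above 0. Differences are on the scale of log2(FPKM + 0.5), tested with limma and adjusted over all tested genes (Benjamini-Hochberg), and a gene is called changed where the adjusted p is under 0.05. Counts of called genes are read against the share of all tested genes called the same way in that comparison. The genes and lists were chosen with earlier results of these data known, so this contrast is no independent test. No such share is given for counts at an unadjusted p under 0.05, nor for most counts under other settings or without some mice. Those counts are description only. Whole skin mixes cell types, so fewer cells of a type and less RNA per cell cannot be told apart.

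Epidermal markers (8 keratin and envelope genes) summed to at least 6472 FPKM in every library, and none of them was at 0 in all libraries of a group. A few unwounded libraries stood apart in other tissue markers. Skeletal muscle markers (7 genes) summed to 475 and 2581 FPKM in abdomen mice 2 and 3, against 10780 to 21552 FPKM in the other 10 unwounded libraries. Keratins of the growing hair follicle (8 genes), which should be low in resting skin, summed to 5414 FPKM in cheek mouse 4, 84.8 FPKM in back mouse 2 and 33.6 FPKM in cheek mouse 3, against 1.91 to 3.42 FPKM in the other 9. The main counts that rest on the abdomen or the cheek are therefore also given without abdomen mice 2 and 3 or without cheek mice 3 and 4. In unwounded skin these mice also had the highest summed levels of the 8 cholesterol genes at their site. Back mouse 2 was left out only in the fits that left out each mouse in turn.

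The promoters of these genes are where the sterol response is known to act, through SREBP sites and neighbouring NF-Y boxes. Promoter sequences from RefSeq (GRCm38.p6) were found for 6 of the 8 genes, all but Fdft1 and Sqle. The 250 bases before the start of Hmgcs1, Insig1 and Cyp51 are shown, the first 2 because they hold the core of the sterol element and Cyp51 because it was among the genes that differed most between sites. They are printed 5′ to 3′ along the gene, and capitals mark CACNCCAC, the core of the sterol regulatory element, and CCAAT, the NF-Y box, on either strand (as the reverse complement where the match is on the other strand).
Hmgcs1, chr13:119690101-119690350, plus strand: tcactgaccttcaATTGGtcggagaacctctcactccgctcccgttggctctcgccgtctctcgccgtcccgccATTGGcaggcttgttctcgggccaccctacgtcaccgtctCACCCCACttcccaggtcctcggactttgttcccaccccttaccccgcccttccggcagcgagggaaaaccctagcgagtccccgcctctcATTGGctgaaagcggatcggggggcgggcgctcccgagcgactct
Insig1, chr5:28071162-28071411, plus strand: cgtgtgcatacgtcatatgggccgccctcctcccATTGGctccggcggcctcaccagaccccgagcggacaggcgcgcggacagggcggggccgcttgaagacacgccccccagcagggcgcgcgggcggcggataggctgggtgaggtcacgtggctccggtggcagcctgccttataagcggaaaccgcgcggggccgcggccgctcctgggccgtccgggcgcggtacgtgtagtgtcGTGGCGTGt
Cyp51, chr5:4104698-4104947, minus strand: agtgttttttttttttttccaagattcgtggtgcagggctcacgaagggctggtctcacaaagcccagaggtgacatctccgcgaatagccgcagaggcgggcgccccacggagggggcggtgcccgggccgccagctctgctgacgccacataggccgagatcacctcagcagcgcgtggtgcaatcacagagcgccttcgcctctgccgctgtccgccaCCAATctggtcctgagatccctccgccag
All 3 stretches lie upstream of the annotated start of the gene, outside it. In a window that runs from these 250 bases to 50 bases after the start, TCACNCCAC, the longer sterol element, was found for 1 of the 6 genes, Hmgcs1, 137 bases before the start, and in 1.24% of 32851 promoters. Its core CACNCCAC, contained in the longer form, was found in Hmgcs1 and, 9 bases before the start and on the other strand, in Insig1, and in 6.24% of promoters. The 6 genes have 8 such windows, since Dhcr7 has 3. CCAAT was found in 6 of the 8 windows, at least 1 for each gene, and in 37.4% of promoters. The GC box GGGCGG was found in 7 of the 8 windows, again at least 1 for each gene, and in 35.7% of promoters. Cyp51 held CCAAT 29 bases before its start. These are matches of letters on either strand, not measured binding.

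In unwounded skin the 3 most abundant of the 8 transcripts were Hmgcs1, Idi1 and Cyp51. Hmgcs1, which codes for an early enzyme of the pathway, had means of 215 ± 69.5 FPKM (abdomen), 106 ± 7.72 FPKM (back) and 180 ± 42.0 FPKM (cheek) (SD, n = 4 here and throughout). Idi1, which isomerises the basic isoprenoid unit and has a close paralogue, Idi2, with which sharing of reads was not tested, had 155 ± 41.0, 82.3 ± 8.35 and 156 ± 47.5 FPKM. Cyp51, which removes a methyl group from lanosterol, had 142 ± 33.4, 64.7 ± 11.4 and 104 ± 15.3 FPKM. Lss, which closes the rings to give lanosterol, had 38.9 ± 5.75, 17.3 ± 1.57 and 21.8 ± 2.84 FPKM, the lowest mean of the 8 in back and in cheek. In abdomen Insig1 was slightly lower, at 37.6 ± 2.56 FPKM. Abdomen had the highest mean of the 3 unwounded groups for 6 of the 8 genes, and cheek for Idi1 and Dhcr7. Back had the lowest mean of the 3 for all 8.

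**Figure D1:**
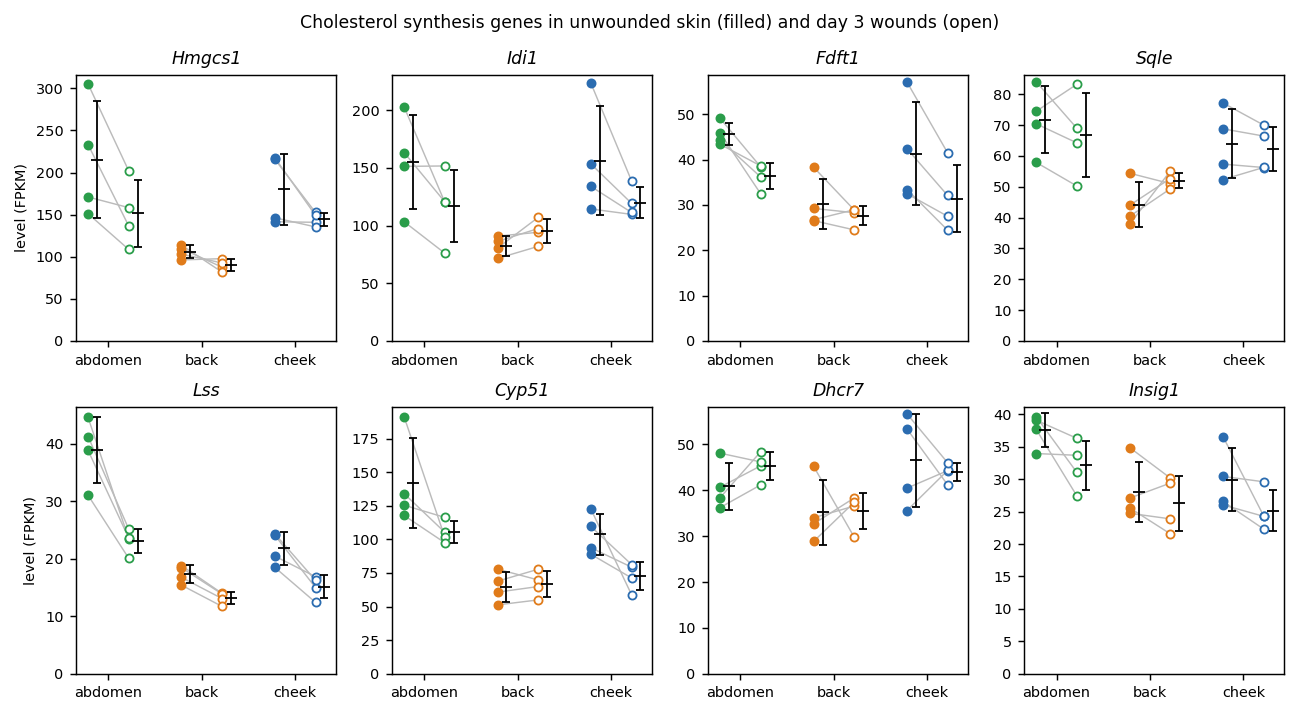
Level (FPKM, linear axis from 0) of each of the 8 genes in every library. Filled points are unwounded skin, open points day 3 wounds, grey lines join the 2 libraries of a mouse, and black bars give the mean ± SD of 4 libraries. Unwounded back skin lies below unwounded abdomen skin without overlap for 6 genes, and every line for Lss runs downward.

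In unwounded skin 4 of the 8 cholesterol genes were called lower in back than in abdomen. All 8 had a lower estimate in back, and 4 were called lower, Lss, Cyp51, Hmgcs1 and Sqle, where 2.14% of 13956 tested genes were called lower. None was called higher. The median difference of the 8 was -0.79 on the log2 scale, beside -0.12 over all tested genes, which median-ratio scaling of the libraries brought to 0.0041. Over all genes the split was 74 higher and 299 lower, and with that scaling 80 higher and 129 lower, and Lss and Cyp51 were then the 2 of the 8 called, with the median of the 8 at -0.65.

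Lss measured 41.2, 44.6, 38.8 and 31.0 FPKM in the unwounded abdomen of mice 1 to 4, and 18.8, 18.4, 16.8 and 15.4 FPKM in the back of 4 other mice. The lowest abdomen library was above the highest back library, and the back mean was 44.6% of the abdomen mean. The log2 difference was -1.14 ± 0.127 (SE), with an adjusted p of 0.00103. Cyp51 measured 134, 191, 125 and 118 FPKM in abdomen and 77.9, 68.9, 60.75 and 51.25 FPKM in back, again without overlap. The difference was -1.12 ± 0.171 (SE) on the log2 scale, with an adjusted p of 0.00644.

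Hmgcs1 measured 171, 233, 305 and 151 FPKM in abdomen and 110, 96.2, 103 and 114 FPKM in back. Its abdomen libraries spread widely, with mouse 3 highest, while the back libraries lay close together, and the groups did not overlap. The difference was -0.97 ± 0.211 (SE), with an adjusted p of 0.0306. Sqle, the oxygenase that makes squalene epoxide and a rate-limiting step of the pathway, measured 74.5, 84.05, 70.4 and 57.9 FPKM in abdomen and 54.4, 37.8, 44.0 and 40.4 FPKM in back. Its highest back library came close to its lowest abdomen library. The difference was -0.69 ± 0.154 (SE), with an adjusted p of 0.0329.

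The other 4 missed the threshold in this comparison. Idi1 measured 103 to 203 FPKM in abdomen and 71.5 to 90.9 FPKM in back, with a difference of -0.88 and an adjusted p of 0.0517. Fdft1, which joins isoprenoids into squalene, measured 43.4 to 49.1 and 26.6 to 38.3 FPKM, with a difference of -0.60 and an adjusted p of 0.0771. Both genes were apart between the 2 sites, so that 6 of the 8 had every back library below every abdomen library, a pattern held by 10.7% of tested genes. For each of the 6 the exact permutation test of 4 libraries against 4 gave a two-sided p of 0.0286, the smallest that this design allows. Insig1 differed by -0.43 (adjusted p 0.0972). Dhcr7, which makes the last reduction to cholesterol from a precursor that also yields vitamin D, differed by -0.22, with a 95% interval from -0.59 to 0.14.

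Hmgcs1 and Sqle each lost their call in 6 of the 12 fits that left out 1 mouse, among them every fit without a back mouse other than, for Sqle, mouse 1, with adjusted p between 0.0556 and 0.124, while Lss and Cyp51 kept theirs in all 12. Without abdomen mice 2 and 3, Lss was the only 1 of the 8 still called, and the differences were -0.97 for Cyp51, -0.61 for Hmgcs1 and -0.58 for Sqle. Without cheek mice 3 and 4, which enter this fit only through the spread, Idi1 and Fdft1 were called as well, 6 of the 8. The share of all tested genes called in these reduced fits is not given here, so the counts describe the fits only.

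Most other enzymes of the pathway were called lower in back as well. Of 13 further synthesis genes, 9 were called lower and 0 higher in unwounded back than in abdomen, against the 2.14% of tested genes called lower, with a median difference of -0.84. Hsd17b7, a reductase that acts after lanosterol, measured 60.6 to 119 FPKM in abdomen and 23.9 to 31.0 FPKM in back, a difference of -1.55 (adjusted p 0.0015). Msmo1, which removes further methyl groups, differed by -1.05 (adjusted p 0.0092). Pmvk, Tm7sf2, Acat2, Mvd, Fdps and Nsdhl were among the others. The count was 7 with median-ratio scaling, and 1 without abdomen mice 2 and 3.

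Among genes of control and uptake, 1 regulator and no uptake gene was called, where 2.14% of 13956 tested genes were called lower. A difference between these lists and the synthesis enzymes was not tested. Of 9 regulators, Insig2 alone was called lower in back, by -0.51 (adjusted p 0.013). Srebf2, which codes for the SREBP most tied to cholesterol, measured 28.4 to 37.5 FPKM in abdomen and 26.2 to 31.8 FPKM in back, with a difference of -0.16 (adjusted p 0.48). Of 9 uptake and transport genes, 8 were tested and none was called at an adjusted p under 0.05 by limma, while 2 had an unadjusted p under 0.05. Of 10 fatty acid synthesis genes, 4 were called lower, Acss2, Acly, Scd1 and Me1, against the same 2.14%. Of 8 efflux and storage genes only Soat1, which esterifies cholesterol, was called lower. The fatty acid count was 2 with median-ratio scaling or quantile normalization and 1 without abdomen mice 2 and 3. Soat1 was not called with either scaling, and neither Soat1 nor Insig2 was called without those mice. Acly, Scd1, Me1 and Soat1 are named here after their values were seen.

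Sebaceous gland markers summed to lower levels in back than in abdomen too. The 8 markers (Mc5r, Scd3, Elovl3, Awat1, Awat2, Dgat2l6, Far2 and Cidea) summed to 908 to 1381 FPKM in unwounded abdomen, 544 to 720 FPKM in back and 569 to 1048 FPKM in cheek. The 8 cholesterol genes summed to 580 to 888 FPKM, 373 to 470 FPKM and 531 to 785 FPKM in the same groups. In abdomen, mice 2 and 3 were highest in both sums, and in cheek, mice 3 and 4. Of the 8 sebaceous markers 2 were called lower in back than in abdomen, with a median of -1.03, and none was at 0 in all libraries of a group. The count was 0 without abdomen mice 2 and 3 and 5 without cheek mice 3 and 4, with no share over all tested genes given for either fit. Markers of wound-edge epidermis (6 genes) ran alongside as well, at 581 to 859 FPKM in abdomen, 394 to 535 FPKM in back and 520 to 1315 FPKM in cheek, where mice 3 and 4 were highest. None of the 5 tested was called between back and abdomen, and 3 had an unadjusted p under 0.05 in limma. The part of either list in the differences of the cholesterol genes was not tested. Abdomen mice 2 and 3 were also the unwounded libraries with the lowest muscle markers, and cheek mice 3 and 4 had the highest hair keratins of the cheek.

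**Figure D2:**
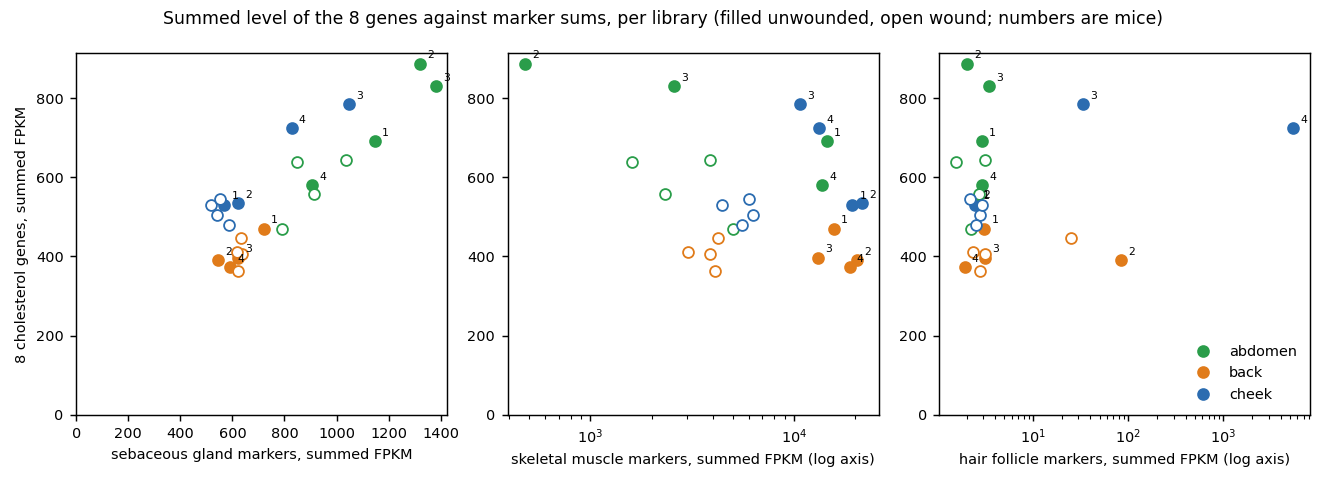
Summed FPKM of the 8 cholesterol genes (vertical axis, linear) against the summed FPKM of sebaceous gland markers (linear axis), skeletal muscle markers and hair follicle markers (log axes), 1 point per library. Filled points are unwounded and labelled with the mouse number, open points are wounds. The 2 unwounded abdomen libraries with the highest cholesterol gene sums, 888 and 830 FPKM, have the highest sebaceous sums and the lowest muscle sums of the unwounded libraries.

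Cheek lay between the other 2 sites for most of the genes. Against abdomen, Lss alone was called lower, where 1.23% of tested genes were. It measured 20.4, 18.5, 24.1 and 24.3 FPKM in cheek mice 1 to 4, below every abdomen library, as were 4.49% of tested genes, with a difference of -0.82 ± 0.127 (SE) and an adjusted p of 0.00697. Without abdomen mice 2 and 3 the difference was -0.71 and the adjusted p 0.15. The median of the 8 was -0.20, beside 0.026 over all genes, and Idi1 and Dhcr7 had means slightly above those of abdomen, with differences of 0.00464 and 0.17, that of Idi1 turning to -0.00583 with median-ratio scaling. Among the other synthesis enzymes Pmvk was called lower, at -0.66, but none without abdomen mice 2 and 3 or without cheek mice 3 and 4, and 4 with quantile normalization. Over all genes 186 were higher and 172 lower, and with median-ratio scaling 104 and 174.

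Against back, all 8 genes had a higher estimate in cheek, with a median of 0.48 beside 0.14 over all genes. None was called by limma, where 1.05% of tested genes were called in either direction. Unadjusted, 7 had a p under 0.05 in limma, for which no share over all tested genes is given. Hmgcs1 (142 to 217 FPKM in cheek), Cyp51 (88.9 to 122) and Idi1 (114 to 223) had every cheek library above every back library, as did 12.4% of tested genes. Their differences were 0.74, 0.68 and 0.88, with adjusted p between 0.0789 and 0.111. None of the 13 other enzymes was called by limma and 7 had an unadjusted p under 0.05. The comparisons with back share the 4 back libraries, and those with abdomen share the 4 abdomen libraries, so they are not independent of each other. When all 24 libraries entered 1 model, 4 of the 8 genes, Hmgcs1, Sqle, Cyp51 and Idi1, were called higher in cheek than in back. The share of all tested genes called in that model is not given here, so this count describes the model only. Cheek had 78 genes above back and 69 below it over all genes, and with median-ratio scaling 38 and 119, when the difference of Insig1 was -0.0529.

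**Figure D3:**
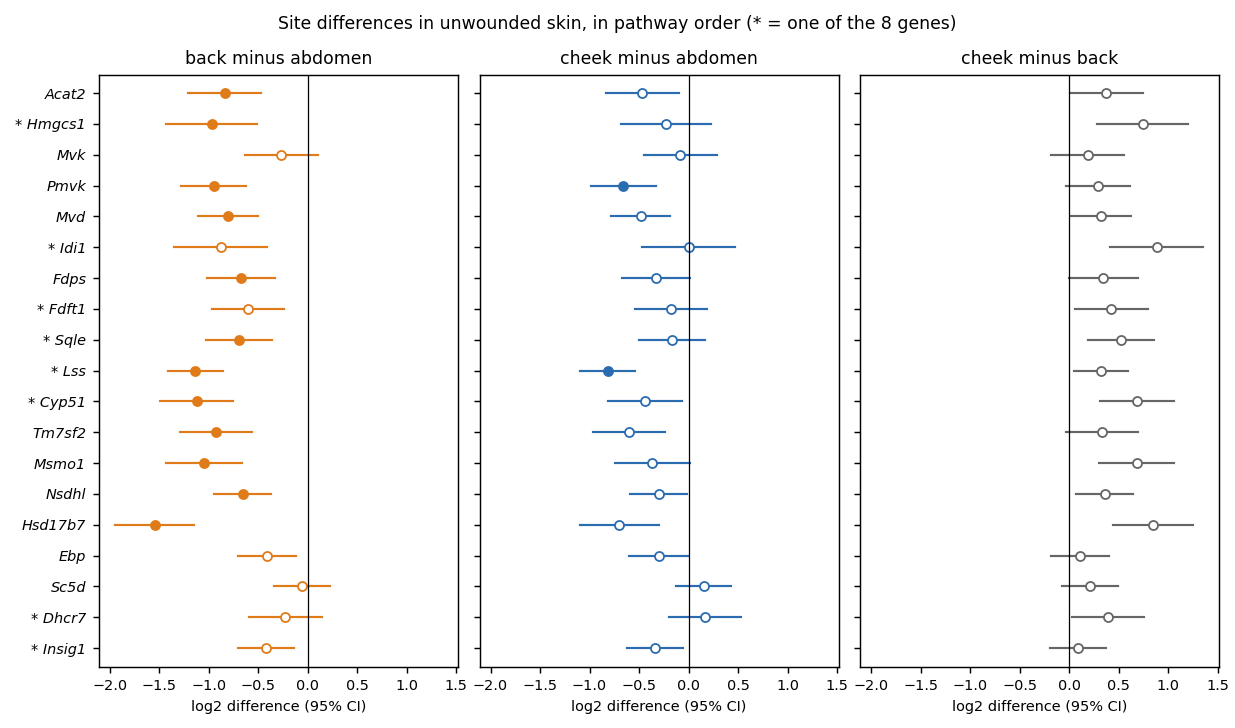
Difference between sites in unwounded skin for the 8 genes (marked with a star) and other synthesis enzymes, ordered along the pathway. Points are log2 differences with 95% confidence intervals from limma, filled where the adjusted p is under 0.05. In back against abdomen every filled point lies left of 0, while Lss and Pmvk are filled for cheek against abdomen and none for cheek against back.

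Lss, Cyp51 and Hmgcs1 were also lower in day 3 wounds of the back than in those of the abdomen. All 8 genes had a lower estimate in back wounds than in abdomen wounds, and 3 were called lower, where 0.763% of 14023 tested genes were. Lss measured 25.2, 23.5, 23.6 and 20.1 FPKM in abdomen wounds and 14.0, 13.9, 13.1 and 11.7 FPKM in back wounds, a difference of -0.79 ± 0.104 (SE) with an adjusted p of 0.00799. Cyp51 differed by -0.66 (105 ± 8.06 against 66.9 ± 9.55 FPKM, adjusted p 0.0314) and Hmgcs1 by -0.72 (151 ± 39.4 against 89.9 ± 6.87 FPKM, adjusted p 0.0424). Fdft1 and Dhcr7 were apart between these groups as well, which made 5 of 8, against 5.33% of tested genes with every back wound below every abdomen wound. Hmgcs1 lost its call in 11 of 12 fits without 1 mouse, all but that without abdomen mouse 4, and Cyp51 in 5, those without abdomen mice 2 or 3 or back mice 1, 3 or 4. Their adjusted p then lay between 0.0510 and 0.110. Hmgcs1 was not called with median-ratio scaling (adjusted p 0.0585) or without cheek mice 3 and 4 (adjusted p 0.0656) either. Without abdomen mice 2 and 3 together, none of the 8 was called.

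In cheek wounds Lss and Cyp51 were lower than in abdomen wounds, by -0.60 and -0.54 (adjusted p 0.00896 and 0.0214), where 3.32% of tested genes were called lower. Lss measured 12.4 to 16.9 FPKM in cheek wounds and Cyp51 58.8 to 81.3 FPKM, both below the whole range of abdomen wounds, 20.1 to 25.2 and 97.6 to 116 FPKM, as were 5.40% of tested genes. Cyp51 lost its call without abdomen mouse 3 or without cheek mouse 2, with adjusted p of 0.0602 and 0.0521, and also without cheek mice 3 and 4, and neither gene was called without abdomen mice 2 and 3. Between cheek and back wounds 7 of the 8 had a higher estimate in cheek, and Hmgcs1 was the 1 called higher, where 1.90% of tested genes were. Hmgcs1 differed by 0.68 (145 ± 7.79 against 89.9 ± 6.87 FPKM, adjusted p 0.0408). It lost that call in 8 of the 12 fits without 1 mouse, all those without a back or a cheek mouse, with adjusted p between 0.0518 and 0.129. Every cheek wound was above every back wound for Hmgcs1, Sqle, Idi1 and Dhcr7, 4 of the 8, against 17.2% of tested genes. Over all genes the splits of higher and lower were 71 and 107, 1054 and 465, and 267 and 84 for back against abdomen, cheek against abdomen and cheek against back. With median-ratio scaling they were 76 and 76, 664 and 738, and 74 and 108.

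Macrophage markers were lowest in abdomen wounds and highest in back wounds. The 6 markers summed to 701 to 955 FPKM in abdomen wounds, 834 to 1000 FPKM in cheek wounds and 984 to 1177 FPKM in back wounds, where the 8 cholesterol genes summed to 469 to 645, 480 to 544 and 363 to 448 FPKM. The sebaceous markers summed to 790 to 1038, 516 to 587 and 618 to 636 FPKM in the same order of groups. The part of either in the differences between wounds was not tested.

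Part of the pathway was lower in wounds than in the unwounded skin of the same mouse. Averaged over the 3 sites, 6 of the 8 genes were called lower, all but Sqle and Dhcr7, where 29.4% of 14423 tested genes were called lower. None was called higher. The median of the 8 was -0.23, beside 0.018 over all tested genes. Lss fell by 0.54 ± 0.043 (SE) on the log2 scale (adjusted p 3.78e-07) and was lower in 12 of 12 mice, for which the two-sided exact sign-change permutation test gave p = 0.000488, the smallest it can give. Hmgcs1 fell by 0.34 (adjusted p 0.00109), Fdft1 by 0.27 (adjusted p 0.00034) and Insig1 by 0.19 (adjusted p 0.013), each lower in 11 of 12 mice, so that with Lss 4 of the 8 were lower in at least 10 of 12 mice, as were 26.2% of tested genes. Cyp51 fell by 0.29 and was lower in 9 of 12 mice (adjusted p 0.00712). Idi1 fell by 0.18 (adjusted p 0.0352) and was lower in 7 of 12 mice, and it lost its call in 8 of the 12 fits without 1 mouse, with adjusted p up to 0.0851, those without abdomen mice 2, 3 or 4, back mice 1, 3 or 4 or cheek mice 3 or 4. Idi1 and Insig1 were not called without abdomen mice 2 and 3, nor without cheek mice 3 and 4. Sqle and Dhcr7 had mean effects of 0.035 and 0.041, with 95% intervals from -0.087 to 0.16 and from -0.14 to 0.22, and both means were below 0 with quantile normalization (-0.051 and -0.039). Over all genes 4798 rose and 4247 fell, and with quantile normalization 3983 and 5325.

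**Figure D4:**
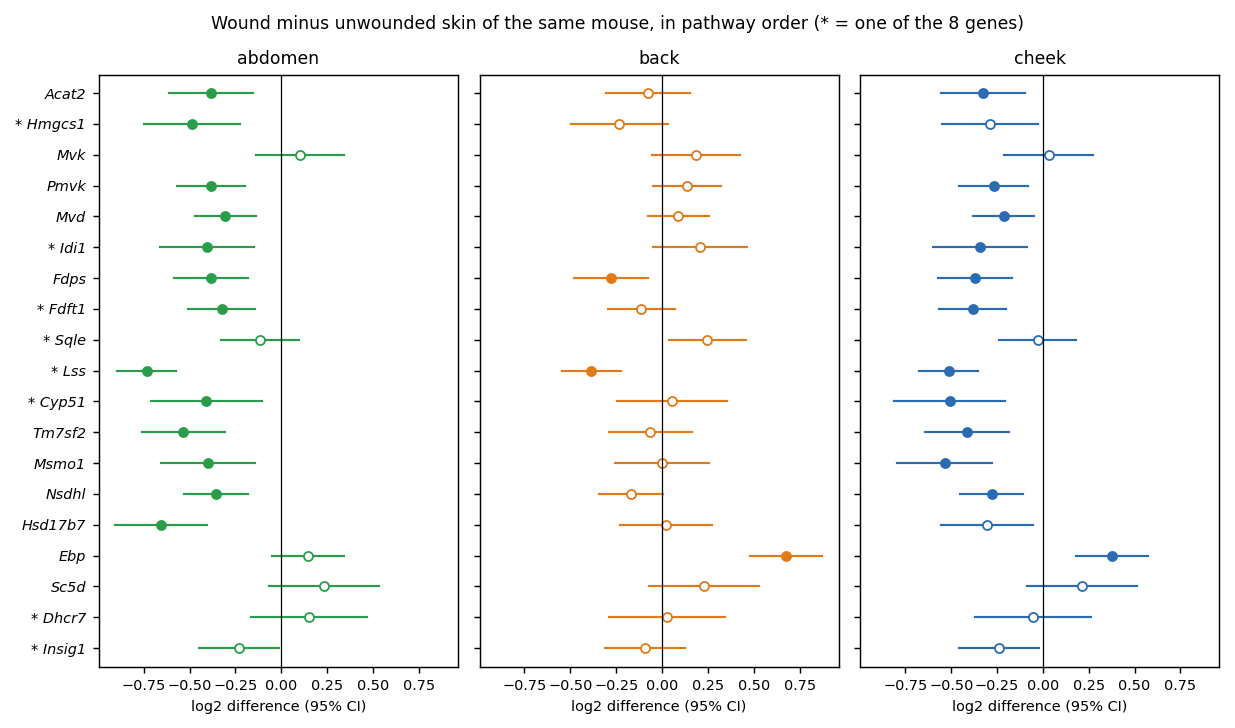
Wound minus unwounded skin of the same mouse at each site, for the 8 genes (marked with a star) and other synthesis enzymes, ordered along the pathway. Points are log2 differences with 95% confidence intervals from the limma fit of 24 libraries, filled where the adjusted p is under 0.05. Lss is the 1 of the 8 genes filled at all 3 sites.

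In abdomen, 5 of the 8 genes were called lower in wounds, as were 16.0% of tested genes. Lss fell by 0.73 ± 0.0745 (SE), to 59.3% of its unwounded mean (adjusted p 3.21e-05), and each of the 4 wounds was below each of the 4 unwounded libraries. Hmgcs1 fell by 0.49 (adjusted p 0.00949), Cyp51 by 0.41 (adjusted p 0.0389), Idi1 by 0.41 (adjusted p 0.0200) and Fdft1 by 0.33 (adjusted p 0.0115). Insig1 had an effect of -0.23 (adjusted p 0.0986) and was lower in 4 of 4 mice, as were Lss, Hmgcs1, Cyp51 and Fdft1 and 25.0% of tested genes. The fall was largest in mouse 2 for each of the 5 genes. Without mouse 2, Hmgcs1, Fdft1, Cyp51 and Idi1 were not called, with effects of -0.39, -0.27, -0.24 and -0.29, and without mice 2 and 3 together Lss alone was called. Idi1 also lost its call without mouse 3 or mouse 4, and Cyp51 without mouse 1, mouse 4 or back mouse 3. With 4 mice, no exact sign-change test can go below p = 0.125. Over all genes 2437 rose and 2304 fell, and with quantile normalization 2148 and 3094.

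In cheek, 4 of the 8 were called lower in wounds, as were 16.9% of tested genes. These were Lss by 0.51 (adjusted p 0.000239), Cyp51 by 0.51 (adjusted p 0.0127), Fdft1 by 0.38 (adjusted p 0.00387) and Idi1 by 0.34 (adjusted p 0.0383). The Cyp51 log2 differences were -0.24, -0.32, -1.05 and -0.43 in mice 1 to 4, so that the fall was largest in mouse 3. Without cheek mouse 3 the Cyp51 effect was -0.33 (adjusted p 0.082), and without cheek mice 3 and 4 Lss was the 1 gene called. Idi1 lost its call in 5 of 12 such fits, those without cheek mice 2, 3 or 4, abdomen mouse 3 or back mouse 3. The effect was negative in 4 of 4 cheek mice for 6 of the 8 genes, against 25.4% of tested genes.

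In back, 1 of the 8 was called lower in wounds, as were 17.9% of tested genes. Lss fell by 0.39 ± 0.0745 (SE), with log2 differences of -0.42, -0.40, -0.35 and -0.38 in the 4 mice (adjusted p 0.00121). Every back wound was below every unwounded back library for Lss. Hmgcs1 had an effect of -0.23 (adjusted p 0.135) and Idi1 of 0.21, with all 4 mice higher (adjusted p 0.170), as were 33.9% of tested genes. Sqle had an effect of 0.25 (adjusted p 0.0545), and was called higher without back mouse 1 or without abdomen mouse 1. The median of the 8 was -0.034, beside 0.066 over all genes, and with median-ratio scaling the 2 medians were -0.10 and 0.0023. Hmgcs1 was called lower with median-ratio scaling, by -0.30, and Hmgcs1 and Fdft1 with quantile normalization. Over all genes 4044 rose and 2578 fell in back wounds, and with quantile normalization 3047 and 3601.

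At an adjusted p under 0.001, Lss was the 1 gene of the 8 called lower in abdomen wounds and in cheek wounds, where 1.04% and 2.19% of tested genes were, and Lss and Fdft1 passed in the mean of the sites, where 14.4% did.

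The difference in wound effect between sites was tested by itself, and none of the 8 passed the moderated F test at an adjusted p under 0.05, where 3 of 14423 genes did (0.0208%). Unadjusted, 3 of the 8 had a p under 0.05, Idi1 (0.00537), Lss (0.0184) and Cyp51 (0.0303), with adjusted p of 0.238, 0.294 and 0.335. The wound effect of Idi1 was 0.61 higher in back than in abdomen, with a 95% interval from 0.25 to 0.98 and an adjusted p of 0.155. For Lss the difference between those sites was 0.35, with an interval from 0.12 to 0.57 and an adjusted p of 0.176. The intervals for Hmgcs1, Dhcr7 and Insig1 spanned 0 for each pair of sites. A gene that fell in abdomen or cheek and was not called in back is thus not shown to respond differently there.

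Sebaceous gland markers were called lower for 5 of 8 genes in cheek wounds, with a median of -0.58, where 16.9% of tested genes were called lower. Their summed level went from 1048 to 516 FPKM in cheek mouse 3 and from 828 to 553 FPKM in cheek mouse 4, but from 569 to 540 and from 621 to 587 FPKM in mice 1 and 2, and without mice 3 and 4 the count was 1. In abdomen 2 of the 8 were lower and 1 higher, where 16.0% and 16.9% of tested genes were. In back 2 were higher, where 28.0% were, and with quantile normalization 1 was lower and none higher. All 7 adipocyte markers were called lower in abdomen and in back, with medians of -1.33 and -1.65, and 6 of them in cheek. Of all tested genes 16.0%, 17.9% and 16.9% were called lower in abdomen, back and cheek. The adipocyte count was 3 in abdomen without mice 2 and 3 and 3 in cheek without mice 3 and 4. Macrophage markers were called higher for 4 of 6 in abdomen and 6 of 6 in back and in cheek, where 16.9%, 28.0% and 19.7% of tested genes were, and for 3 in cheek without mice 3 and 4. The part of a changed mixture of cells in the fall of the cholesterol genes was not tested.

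Other synthesis enzymes moved in both directions in wounds, most of them down. Of the 13 further enzymes, 8 were called lower and 3 higher in the mean wound effect, where 29.4% of tested genes were called lower and 33.3% higher, and the median was -0.17. Fdps and Tm7sf2 fell by 0.34, Hsd17b7 and Msmo1 by 0.31, Nsdhl by 0.27, Acat2 by 0.26, Pmvk by 0.17 and Mvd by 0.14. Among those that rose were Ebp, a sterol isomerase, by 0.40 (adjusted p 2.85e-05), and Sc5d, a sterol desaturase, by 0.23 (adjusted p 0.0251). Ebp measured 40.8 ± 2.8 FPKM in unwounded back skin and 65.5 ± 5.7 FPKM in back wounds. With median-ratio scaling, with quantile normalization or without cheek mice 3 and 4, 2 of the 13 were called higher. In abdomen wounds the counts were 8 lower and 0 higher, in cheek 7 lower and 1 higher, and in back 1 lower and 2 higher, where 16.0%, 16.9% and 17.9% of tested genes were called lower in abdomen, cheek and back. Without abdomen mice 2 and 3 the abdomen count was 2 lower, and without cheek mice 3 and 4 none was called in cheek.

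Among the 9 regulators 3 fell and 1 rose in the mean wound effect, a share of falls near the 29.4% over all tested genes, and with quantile normalization 5 fell. Insig2 fell by 0.39, Srebf1, which codes for the SREBP most tied to fatty acid synthesis, by 0.34 and Mbtps1, which makes the first cut in SREBP, by 0.26, and Scap rose by 0.16. Srebf2 had an effect of 0.02 (adjusted p 0.77). The 10 fatty acid synthesis genes had 6 lower and 2 higher, against 29.4% and 33.3% of tested genes. Acss2, which makes acetyl-CoA from acetate, fell by 0.65 and Fasn, the fatty acid synthase, by 0.44, while Scd2 rose by 0.23 and Elovl6 by 0.22. With quantile normalization none of the 10 was called higher.

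Genes of cholesterol uptake moved in both directions in wounds. Of the 9 uptake and transport genes, 4 rose and 3 fell, which is near the shares over all tested genes, 33.3% and 29.4%. Without cheek mice 3 and 4 only 1 fell, and without abdomen mice 2 and 3 it was 2. Scarb1, a receptor for HDL, fell by 0.17 (adjusted p 0.030). Vldlr, a receptor for triglyceride-rich particles, fell by 0.84 (adjusted p 4.4e-06), from 11.0 ± 0.97 to 4.74 ± 0.86 FPKM in back. Lipa, the lysosomal lipase that frees cholesterol from its esters, rose by 1.04 (adjusted p 4.9e-07), from 17.2 ± 4.1 to 37.2 ± 3.9 FPKM in back. Npc2 and Npc1, which carry cholesterol out of the lysosome, rose by 0.57 and 0.21.

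All 8 efflux and storage genes were called in the mean wound effect, 7 higher and 1 lower, where 33.3% of tested genes were called higher and 29.4% lower. The counts were the same without abdomen mice 2 and 3 and without cheek mice 3 and 4. Abcg1, which exports cholesterol to HDL, rose by 1.28 (adjusted p 1.4e-08), from 5.58 ± 1.4 to 16.4 ± 2.9 FPKM in back and from 5.92 ± 0.53 to 13.6 ± 4.2 FPKM in abdomen. Ch25h, which makes an oxysterol that holds back SREBP, rose by 1.47 (adjusted p 2e-07) but was low throughout, at 0.465 ± 0.18 FPKM in unwounded back and 3.11 ± 0.72 FPKM in back wounds. Cyp27a1 fell by 0.32 (adjusted p 0.019). Macrophages are known to express several of these genes, and the macrophage markers were higher in the same wounds. Their part in this rise was not tested.

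**Figure D5:**
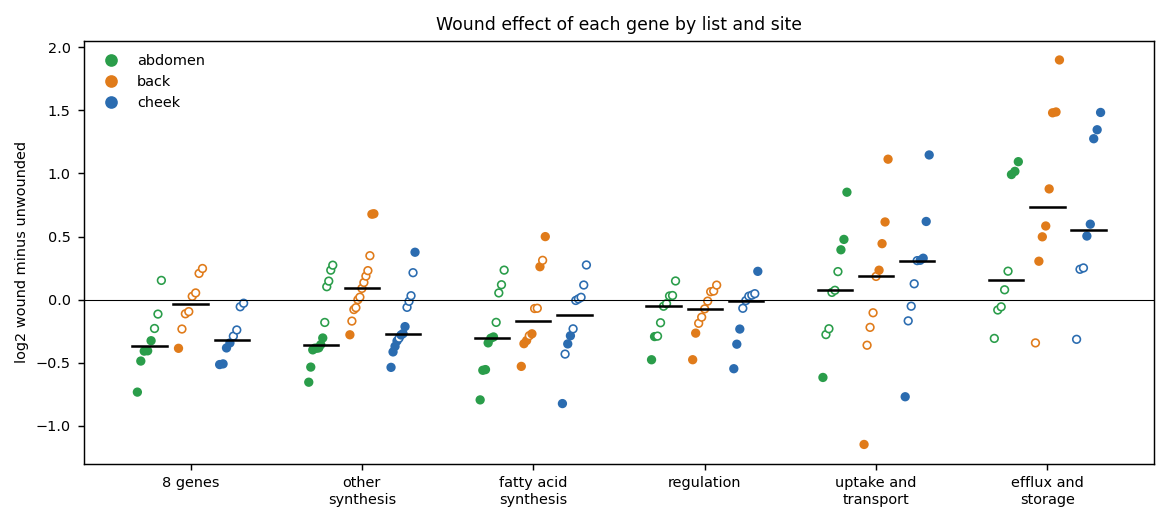
Wound effect (log2 wound minus unwounded, vertical axis) of every tested gene of 6 lists, by site. Filled points have an adjusted p under 0.05 in limma, and black bars are the medians of a list. The medians of the 8 genes are -0.37, -0.034 and -0.32 in abdomen, back and cheek, while those of efflux and storage genes are 0.15, 0.73 and 0.55.

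Across the 24 libraries the log2 levels of the 8 genes were positively correlated in every pair. No baseline over other pairs of genes was taken. Over their 28 pairs Pearson's r of the log2 levels lay between 0.26 and 0.90, with a median of 0.73, as a description of libraries that share sites, mice and depth. Lss and Cyp51 were the closest pair and Dhcr7 and Insig1 the least alike. With the mean of each of the 6 groups subtracted, r lay between -0.095 (Idi1 and Insig1) and 0.88 (Sqle and Idi1), with a median of 0.53. Against the mean of the other 7, Cyp51 had the highest r, 0.912, and Dhcr7 and Insig1 the lowest, 0.622 and 0.605.

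Outside the 8, the genes whose levels over the 24 libraries were most like the mean of the 8 (standardised log2 levels) were Rdh11, Nsdhl, Dgat2l6, Pank1, Ttk, Acat2, Sec14l4, Entpd5, Cdc42bpg and Liph, with r from 0.945 for Rdh11 to 0.900 for Liph. Nsdhl and Acat2 are enzymes of the same pathway and Dgat2l6 is 1 of the 8 sebaceous gland markers. With the group means subtracted, the 10 most alike included Trim29, Elovl3, Zfp410, Tsku, Acad9, Kmt5a, Chil1, Sgpp2 and Stk24, with r from 0.895 for Trim29 to 0.849 for Stk24. Elovl3 is also a sebaceous gland marker, and no other cholesterol synthesis gene was among these 10.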

How the data were processed

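RNA-seq had been done on whole skin from 12 mice, a wound and an unwounded library from each. According to the labels and the methods, the authors aligned reads to mouse GRCm38/mm10 with HISAT2 and Bowtie2 2.2.5 and quantified genes with RSEM 1.2.12, and deposited 1 table of FPKM values per gene and library. FPKM are relative to all mapped fragments of a library, so a few abundant genes can shift all others, and absolute depth is unknown. From low values taken to stand for whole fragments (72 genes), relative depth came out at roughly 0.871 to 1. Only values close to a common step entered, so this estimate cannot show large differences in depth. The authors' own comparison columns (fold changes and adjusted p from DESeq2) were not used.

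Values were taken as log2(FPKM + 0.5), which understates the change of low genes. A gene was kept where 4 or more libraries of the fit reached 0.5 FPKM. Sites were compared in limma 3.58.1 (R 4.3.3, statmod 1.5.0, trend and robust moderation) within the 12 unwounded or the 12 wound libraries. Wound effects came from 24 libraries with a term for each mouse. P-values were adjusted by Benjamini-Hochberg over all tested genes, with a threshold of 0.05. Exact permutation tests went through every arrangement, in Python 3.11.15 with numpy 2.4.6. Wound and unwounded libraries of a site and number were taken as the same animal, by the labels and the paper's paired comparison. Their deviations from the group means correlated with a mean r of 0.317 (11 of 12 pairs over 0.1). For sites the p-values measure the spread between mice, and for wound effects the spread of the within-mouse differences. Scripts were tested on simulated data. No 2 libraries held identical values.

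The 8 genes and all lists were chosen with earlier results of these data known. The genes named were all 8, other genes of synthesis, regulation and uptake, and, of efflux and fatty acid genes, the 2 largest rises and falls past the threshold in the mean wound effect. Alternatives were another pseudocount, filter, scaling, moderation, threshold, block and set of libraries, and leaving out each mouse. Leaving out pairs of mice, and the alternatives for marker lists, were added after seeing the data. Promoters came from RefSeq. A few genes of the lists are not reported here by name.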

Additional observations from a re-analysis of the deposited data

Results flagged for a closer look

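Of the 48 groups of 4 libraries formed by the 8 genes, 3 sites and 2 states, 1 held a library far from the others by Dixon's criterion, which chance meets in about 1 in 20 groups. Fdft1 measured 24.51 FPKM in the back wound of mouse 4, against 28.3 to 28.94 FPKM in the other 3 back wounds.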

How the results depend on the processing

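No called difference of the 8 genes changed sign under any alternative run. The number of the 8 called in unwounded back against abdomen, 4, was 2 with median-ratio scaling, 2 with a replicate block on mouse number, 0 at a threshold of 0.001, 7 with 24 libraries in 1 model, 1 without abdomen mice 2 and 3 and 6 without cheek mice 3 and 4 (2 to 5 without 1 mouse). For unwounded cheek against abdomen, 1 became 0 at 0.001 and without abdomen mice 2 and 3 (1 to 1 without 1 mouse), and for unwounded cheek against back, 0 became 4 with 24 libraries (0 to 1). In wounds, back against abdomen had 3, then 0 at 0.001, 1 with the replicate block, 0 without abdomen mice 2 and 3 and 2 with median-ratio scaling, no filter, no trend, 24 libraries or without cheek mice 3 and 4 (1 to 3). Cheek against abdomen had 2, then 0 at 0.001, 0 without abdomen mice 2 and 3 and 1 without cheek mice 3 and 4 (1 to 2), and 3 with median-ratio scaling. Cheek against back had 1, then 0 with no filter, median-ratio scaling, the 0.001 threshold, the replicate block, 24 libraries and without cheek mice 3 and 4 (0 to 2). The wound effect in abdomen, 5, was 1 at 0.001, 1 with no replicate block, 3 with the 8 libraries of the site, 1 without abdomen mice 2 and 3, 4 with no filter and 6 with quantile normalization (1 to 5). That in back, 1, was 2 with median-ratio scaling, 3 with quantile normalization and 0 at 0.001 (1 to 2). That in cheek, 4, was 1 at 0.001, 2 with no replicate block, 3 with the 8 libraries of the site, 1 without cheek mice 3 and 4 and 6 with median-ratio scaling (2 to 4). The mean of the sites, 6, was 2 at 0.001, 5 with no replicate block and 4 without either pair of mice (5 to 6), and the test of a difference between sites gave 0 (0 to 1). The 0.001 threshold can only lower a count. Leaving out libraries lowered some counts and raised others, and the cause of the changes was not tested. Shares over all tested genes are not given beside the counts of this paragraph. The counts therefore describe each setting, and a higher count is no stronger result about the 8 genes. The sample titles repeat the same mouse numbers at each site, while the methods describe wounds at a single site per mouse. Across sites mice were therefore taken to share only a number (mean r -0.027 in unwounded skin and -0.051 in wounds), and the block on number as no pairing. Depth is unknown and sets no limit here that can be computed.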
